A study of Mus musculus with 2 samples.

Results

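Parenchymal microglia, the resident macrophages of the brain tissue, were examined in a single-cell RNA-seq data set of the mouse ventral parafacial region, the part of the ventral medulla that holds the retrotrapezoid nucleus. The members were 912 of 12395 filtered cells (7.36%, 95% exact Clopper-Pearson interval 6.90 to 7.83), 311 of 3345 in the untreated library and 601 of 9050 in the 4OH-tamoxifen library. They were selected on measured unique molecular identifiers (UMIs, each standing for 1 captured mRNA molecule): at least 8 UMIs of *C1qa*, *C1qb*, *C1qc* and *Csf1r* together, at least 1 of *P2ry12*, *Tmem119* and *Cx3cr1*, at most 1 of the macrophage genes *Mrc1*, *Pf4* and *Cd163*, at most 1 of the endothelial genes *Cldn5* and *Flt1*, at most 1 of the oligodendrocyte genes *Mog* and *Mag*, and none of the neuronal genes *Slc32a1* and *Slc17a6*. Filtered cells had at least 800 genes, at most 50 hemoglobin UMIs and at most 20% mitochondrial UMIs.

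Both libraries came from wild-type C57BL6/J mice that were 10 days old, with 8 pooled pups (4 male and 4 female) each. Pups of the second library had received 0.2 mg of 4OH-tamoxifen, an active metabolite of the oestrogen receptor ligand tamoxifen, daily for 3 days, and the first library's pups are labelled only as wild type. Slices of 300 µm were digested with protease XVIII, the region was cut out and the tissue was dissociated by trituration before capture with version 2 10X chemistry. There was 1 library per condition, the untreated library was batch 1 and the 4OH-tamoxifen library batch 2, so condition, batch, depth and pool of pups cannot be told apart and no test between libraries was made. Intervals beside values are 95% exact intervals that cover counting error only.

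Microglia enter the brain from the embryonic yolk sac and persist there by self-renewal. Their survival depends on *Csf1r*, the receptor of the ligands *Csf1* and *Il34*, and their adult identity on TGF-beta signalling. Under steady conditions they express *P2ry12*, a purine receptor that steers their processes, *Cx3cr1*, the receptor of neuronal fractalkine, and *Tmem119*, a surface protein of unsettled function. They clear dying cells and synapses, tag targets with the complement C1q subunits, and lower many of these steady-state genes when they are stressed or activated.

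Members had a median of 3934 UMIs and 1587 genes in the untreated library and 2430 UMIs and 1128 genes in the 4OH-tamoxifen library, a ratio of 1.62 between the median UMI counts. Other filtered cells had medians of 3577 and 2471 UMIs, and the members' UMIs summed to 1306425 and 1607260. The summed *C1qa*, *C1qb*, *C1qc* and *Csf1r* UMIs had a median of 74 per untreated and 36 per 4OH-tamoxifen member, with ranges of 8 to 218 and 8 to 156, against a median of 0 in the other filtered cells of each library. These UMIs were used by the rule, so the contrast is a description. Few cells lay near this limit: among cells that met every other limit, 4 untreated and 6 4OH-tamoxifen members had 8 or 9 of these UMIs, while 3 and 3 cells just outside had 6 or 7. The limit on *Mog* and *Mag* removed more cells than any other limit after the first. Of the cells that met every other limit, 38 and 40 had exactly 2 UMIs of the pair and lay just outside, and 78 and 164 members had exactly 1. No barcode was a member in both libraries, although 40 barcodes occurred in both.

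**Figure D1:**
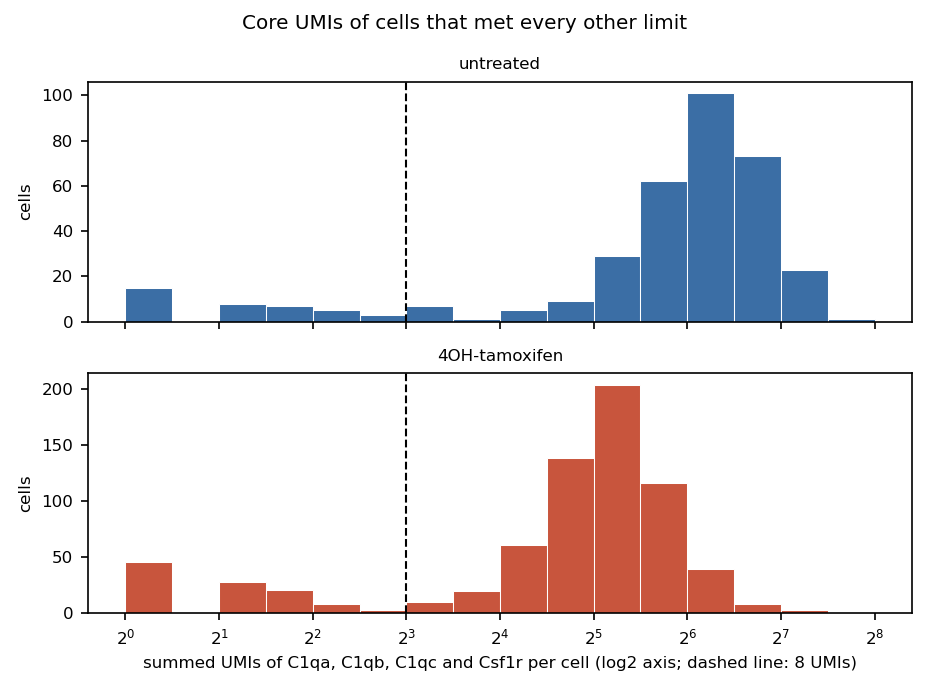
Histogram of the summed C1qa, C1qb, C1qc and Csf1r UMIs per cell (x axis, log2 scale) against the number of cells (y axis, a separate scale per library) for filtered cells that met every other limit and had at least 1 such UMI. The cells to the right of the dashed line at 8 UMIs are the members, and the medians of 74 and 36 UMIs lie far above the line in the untreated and the 4OH-tamoxifen library.

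The share of microglia was 9.30% (8.33 to 10.3) of filtered cells in the untreated and 6.64% (6.14 to 7.17) in the 4OH-tamoxifen library, a ratio of 0.714. With a minimum of 1200 genes per cell, the ratio was 0.482. The defining genes, which the rule used, were read over all members together: *P2ry12* (chromosome 3, 59216272 to 59262871, GRCm38) was at 1983 and 742 CPM in untreated and 4OH-tamoxifen members, *Tmem119* (chromosome 5, 113793729 to 113800516) at 1173 and 677 CPM, *Cx3cr1* (chromosome 9, 119901616 to 120069879) at 1385 and 1254 CPM, and *C1qa* (chromosome 4, 136895917 to 136898803) at 5865 and 4376 CPM. CPM here is the summed UMIs of a gene over the UMIs of all members of a library, times 1000000. It is a 3′ count of molecules, so it is not divided by gene length. Markers of related blood-lineage cells other than erythroid cells were low. The 7 border-associated macrophage markers that the rule did not limit summed to 1.53 and 3.11 CPM, and the 10 monocyte and neutrophil markers to 13.8 and 5.60 CPM. Of the 10 lymphocyte markers 9 had 0 UMIs, and *Cd79b* was at 38.3 and 31.1 CPM against 1.65 and 0.853 CPM in other cells. The 5 erythroid markers summed to 164 and 187 CPM, near the 170.2 and 170.4 CPM in other cells.

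Outside the rule, the genes with the largest excess over the other filtered cells were receptors, lysosomal enzymes and other genes of the mononuclear phagocyte lineage. *Selplg*, a selectin ligand, was at 1354 and 763 CPM in members against 31.6 and 10.9 CPM in other cells, ratios of 42.9 and 69.8. Ratios were 42.7 and 65.5 for the lectin *Siglech* and 41.7 and 60.8 for *Gpr34*, a lysophosphatidylserine receptor. The lipid receptor *Trem2* reached 39.3 and 59.4, the protease cathepsin S gene *Ctss* 39.1 and 68.4, and the pore-forming *Mpeg1* 48.8 and 65.3. *Cd53*, *Crybb1*, *AF251705*, *Ly86* and *Bin2* were also among the 12 highest, with ratios between 38.2 and 59.0. Because cells were chosen by their UMIs, these ratios are a description. Genes counted as measured reached 50 CPM in 1 library or both and 20 UMIs in each. Of these 2869 genes, 338 (11.8%), among them the 7 genes of the rule, were at least 4 times higher in members than in other cells in both libraries. In that count stood 15 of 16 homeostatic genes listed outside the rule, 12 of 12 measured genes of *Trem2* and ITAM signalling and 13 of 20 measured lysosomal genes.

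The promoters of these marker genes were searched for GAGGAAGT, a purine-rich core to which ETS factors such as PU.1 (the product of *Spi1*) bind, on both strands of windows that run from 250 bases before to 50 bases after each start (RefSeq, GRCm38.p6). A match was found for 32 of 254 genes with a window among the 338 (12.6%), against 4.27% of the 2223 measured genes with a window and 3.69% of all 27025 genes with one. The AP-1 motif TGANTCA, which does not overlap it, was in 10.2% of the same genes, 6.12% of measured genes and 8.97% of all genes. Neither motif was found in the windows of 12 homeostatic or 16 immediate early genes. Of the 12 highest genes, 7 had a window and 2 held the PU.1-type letters. Those 2 windows are shown 5′ to 3′ along the gene, with the match in capitals (it reads as the reverse complement there), for *Ctss* at chr3:95526536-95526835 on the + strand and *Cd53* at chr3:106790100-106790399 on the - strand.
Ctss: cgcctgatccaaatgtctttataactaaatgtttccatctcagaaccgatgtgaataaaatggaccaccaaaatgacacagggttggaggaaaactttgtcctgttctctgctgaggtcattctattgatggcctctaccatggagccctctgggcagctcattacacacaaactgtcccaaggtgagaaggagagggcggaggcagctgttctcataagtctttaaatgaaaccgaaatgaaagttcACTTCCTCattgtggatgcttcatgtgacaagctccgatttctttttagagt
Cd53: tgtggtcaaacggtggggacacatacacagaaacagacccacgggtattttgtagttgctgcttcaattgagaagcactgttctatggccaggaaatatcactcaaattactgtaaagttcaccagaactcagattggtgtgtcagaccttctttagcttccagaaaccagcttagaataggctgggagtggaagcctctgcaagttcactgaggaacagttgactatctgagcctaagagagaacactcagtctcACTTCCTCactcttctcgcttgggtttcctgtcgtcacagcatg
In *Ctss* the match covers bases 249 to 256 of the window, at the start itself, and in *Cd53* bases 257 to 264, just after it. A match describes the letters only.

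*Ctss*, whose window is printed, was at 3644 and 2641 CPM in untreated and 4OH-tamoxifen members, a ratio of 4OH-tamoxifen over untreated of 0.725 (0.695 to 0.755), and *Cd53*, which encodes a tetraspanin of leukocytes, at 798 and 365 CPM, a ratio of 0.457 (0.413 to 0.507). Both were lower in the 4OH-tamoxifen library, *Cd53* past a ratio of 0.5. *Spi1* itself was at 484 and 382 CPM.

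Lineage transcription factors were detected at low to moderate levels. Of 16 listed factors, 15 passed the filter on low values. *Mef2c* was the highest at 564 and 439 CPM, followed by *Spi1*, the interferon regulatory factor *Irf8* (290.1 and 248 CPM) and *Maf* (250.3 and 205 CPM). *Sall1*, a factor that separates microglia from other macrophages, was at 152 and 132 CPM in members and at 31.6 and 0 CPM in macrophages. *Smad3*, which did not pass, was at 18.4 and 21.2 CPM.

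The levels of receptors and ligands of microglia differed between members and other cells. *Tgfb1* was higher in members, at 263 and 183 CPM against 32.5 and 15.2 CPM in other cells, and so were its receptor *Tgfbr1* (468 and 411 CPM against 35.5 and 29.5 CPM) and *Nrros* (97.2 and 66.6 CPM against 10.2 and 5.28 CPM), which anchors latent *Tgfb1* to the microglial surface. Integrin *Itgb8*, which activates latent TGF-beta on neighbouring cells, was the reverse, at 12.2 and 38.6 CPM in members against 93.6 and 94.1 CPM. Of the *Csf1r* ligands, *Il34* had 0 UMIs among all members, which allows up to 2.30 and 1.87 CPM, against 11.6 and 5.25 CPM in other cells, and *Csf1* was at 12.2 and 25.5 CPM against 27.4 and 27.0 CPM. Higher in other cells were the fractalkine gene *Cx3cl1* (4.59 and 8.09 CPM in members, 25.4 and 31.0 CPM outside), the restraint signal *Cd200* (9.19 and 16.2 CPM, 79.4 and 79.6 CPM) and the anti-phagocytic signal *Cd47* (113 and 101 CPM, 242 and 270.1 CPM). The gene *Sirpa* of its receptor was higher in members, at 427 and 368 CPM against 47.5 and 37.5 CPM.

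Among receptors for uptake, 13 of 19 listed genes passed the filter. The Fc receptor gene *Fcgr3* was the highest at 765 and 729 CPM, followed by the immune checkpoint *Vsir* (530.5 and 376 CPM) and the integrin *Itgb5* (377 and 288 CPM). *Trem2* was at 1629 and 1305 CPM and its adaptor gene *Tyrobp* at 3376 and 2920.5 CPM. *Fcer1g*, another ITAM adaptor gene, was at 1891 and 1417 CPM. The scavenger receptors *Cd36* and *Msr1* were at or near 0, with 0 and 0 UMIs of *Cd36* and 1 and 1 UMIs of *Msr1*. Outside the C1q subunits, the complement genes were sparse. *C3* had 0 and 1 UMIs. Of 17 innate sensors 5 passed, among them *Ly86* (1434 and 954 CPM), *Pycard* (436 and 359 CPM) and *Tlr2* (52.1 and 53.5 CPM).

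Border-associated macrophages, which line vessels and meninges, are the nearest cell class. They were taken as filtered cells with at least 2 UMIs of *Mrc1*, *Pf4* and *Cd163* and otherwise the same limits, except 1. No UMI of *P2ry12*, *Tmem119* or *Cx3cr1* was required of them, unlike of the members. This gave 27 untreated and 33 4OH-tamoxifen cells with 126513 and 84713 UMIs. Among 1375 genes with at least 100 CPM in either class of each library, 46 (3.35%) were at least 4 times higher in macrophages in both libraries and 33 (2.40%) at least 4 times higher in microglia. The genes higher in macrophages were led by *Ms4a7*, a membrane protein at 292 and 626 CPM, the lectins *Clec4n* (182 and 272 CPM), *Clec10a* (119 and 106 CPM) and *Cd209f* (134 and 142 CPM), the hyaluronan receptor *Lyve1* (474 and 212 CPM) and the fatty acid receptor *Cd36* (111 and 165 CPM). None of these 6 had a UMI in any member, so macrophages were at least 48.2 to 207 times higher in the untreated and at least 56.9 to 335 times higher in the 4OH-tamoxifen library, taking 3 UMIs over all members as the limit. The coagulation factor gene *F13a1* was at 790.4 and 531 CPM in macrophages, with 1 and 0 UMIs in members, and *Cbr2* at 767 and 425 CPM, with 1 and 5 UMIs.

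In the other direction, *Olfml3*, a secreted olfactomedin-like protein, was at 818 and 487 CPM in microglia and 71.1 and 23.6 CPM in macrophages. *Siglech* was at 565 and 389 CPM against 71.1 and 11.8 CPM, the adhesion gene *Cadm1* at 101 and 161 CPM against 7.90 and 11.8 CPM, and the immune receptor *Lag3* at 342 and 183 CPM against 31.6 and 0 CPM. *Gngt2*, *Bin2*, *Abi3* and *Ecscr* were also among the 8 highest, and each had at most 7 UMIs in the macrophages of either library. Of 15 homeostatic genes measured in this comparison, 9 were at least 4 times higher in microglia and none in macrophages. Chemokine genes went the other way in part, with 4 of 8 at least 4 times higher in macrophages, among them *Ccl24* (0.765 and 3.73 CPM in microglia, 150.2 and 177 CPM in macrophages), although *Ccl4* was at 321 and 393 CPM in microglia and 39.5 and 59.0 CPM in macrophages. *Mrc1*, *Pf4* and *Cd163* chose the macrophages and were left out of these counts, and the libraries' macrophages rest on few cells.

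**Figure D2:**
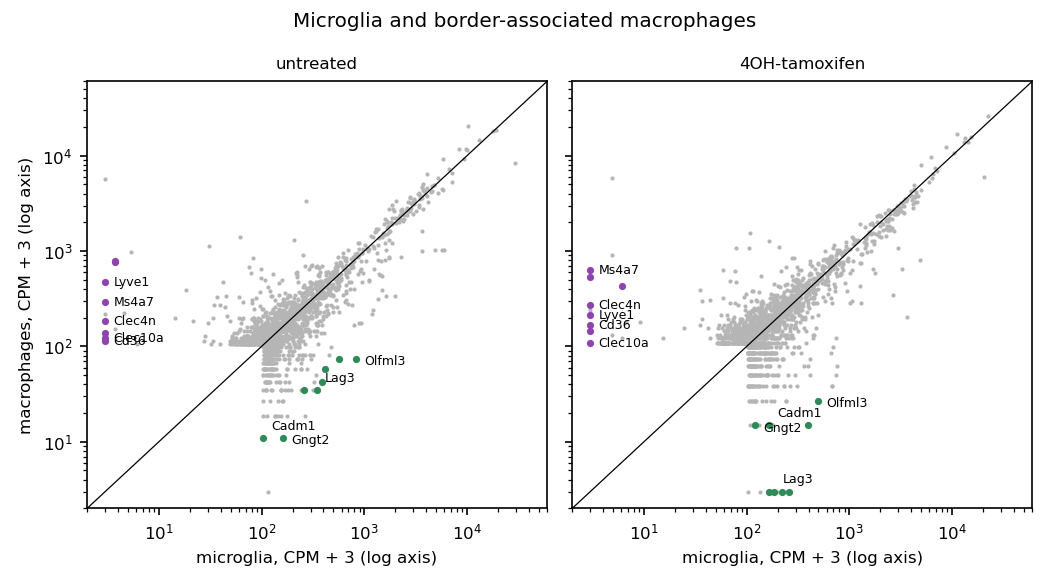
Scatter of CPM + 3 in microglia (x axis, log scale) against CPM + 3 in border-associated macrophages (y axis, log scale) for genes with at least 100 CPM in either class, 1 panel per library. Purple points are the 8 genes highest in macrophages, of which 6 sit at 0 UMIs in microglia in both libraries, at the left edge, and green points are the 8 genes highest in microglia, with the first ranks named and the diagonal drawn.

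Between the libraries, 87 of 2869 genes (3.03%) had a CPM ratio of 4OH-tamoxifen over untreated of at least 2 in microglia and 28 (0.976%) a ratio of at most 0.5. Of these genes, 67 of the 87 and 15 of the 28 reached 50 CPM only in the library where they were higher, so the filter partly set which genes were counted. All 28 lower genes had a higher level in untreated members than in other untreated cells, against 1366 (47.6%) of all 2869 genes. The 28 include *P2ry12*, whose excess over other cells was set by the rule. Because members were chosen by their UMIs, these counts are a description. Of the 28, 19 were at least 4 times higher in members in both libraries, and 27 were lower in other 4OH-tamoxifen cells too. Of 413 untreated and 767 4OH-tamoxifen filtered cells with at least 8 *C1qa*, *C1qb*, *C1qc* and *Csf1r* UMIs, 311 and 601 were members. The rest counted as other cells, and their part in the values of other cells was not tested. Of the 87 higher genes, 74 had a higher level in other 4OH-tamoxifen cells than in members, against 1448 (50.5%) of all 2869 genes, and 71 were higher in the 4OH-tamoxifen library in other cells too. Over all 2869 genes, 1810 (63.1%) were lower and 1059 (36.9%) higher in other 4OH-tamoxifen than other untreated cells. The balance of directions changed with the processing. After thinning each cell to 1500 UMIs, which also changes the weight of each cell and the genes that pass, 30 genes were higher and 52 lower, while equal weights without thinning gave 70 and 27. With the libraries scaled to the median of the 338 microglial genes, which shifts every log2 ratio by 0.37, 240 were higher and 3 lower. A minimum of 1200 genes per cell gave 167 and 54, and leaving out the top Scrublet doublet scores gave 51 and 27. The median log2 ratio was -0.04 over all 2869 genes and -0.37 over the 338.

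Homeostatic genes were lower in the 4OH-tamoxifen library. *P2ry12*, a gene of the rule, was at 1983 and 742 CPM in untreated and 4OH-tamoxifen members, a ratio of 0.374 (0.349 to 0.401). Outside the rule, all 16 listed homeostatic genes passed the filter and all 16 had ratios below 1, as did 1547 of all 2869 genes and 296 of the 338 microglial genes. Their median log2 ratio was -0.62. The list summed to 52848 and 35994 CPM in members, a ratio of 0.681, and the same sum had ratios of 0.647 in macrophages and 0.668 in other filtered cells. *Cst3* made up most of each sum. The list's median log2 ratio was -1.04 in other cells, which include cells with microglial UMIs that failed the rule. *Gpr34* was at 785 and 307 CPM, a ratio of 0.391 (0.351 to 0.436), the fructose transporter gene *Slc2a5* at 140.1 and 61.6 CPM, a ratio of 0.440 (0.341 to 0.565), and the purine receptor gene *P2ry13* at 299 and 141 CPM, a ratio of 0.473 (0.400 to 0.559). These 3 were past 0.5, and the other 13 ranged from 0.563 for *Selplg* to 0.889 for *Serpine2*, a protease inhibitor. *Cst3*, the cystatin C gene and the highest of the list, was at 29363 and 20259 CPM, a ratio of 0.690 (0.680 to 0.700). With the libraries scaled to the 338 microglial genes the list's median was -0.25, and *Gpr34*, *Slc2a5* and *P2ry13* no longer passed the fold, with log2 ratios of -0.99, -0.82 and -0.71.

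*P2ry12* and *Cx3cr1* were both used by the rule, so their values are a description. At equal depth, with each cell thinned to 1500 UMIs (311 untreated and 597 4OH-tamoxifen cells, 4 shallower cells left out), members had a median of 3 and 1 *P2ry12* UMIs, with quartiles of 1 and 4 against 0 and 2. *Cx3cr1* had a median of 2 and quartiles of 1 and 3 in both libraries, and its CPM ratio was 0.905 (0.849 to 0.965), which was above 1 only when the libraries were scaled to the 338 microglial genes. The 16 homeostatic genes together had a median of 80 UMIs in untreated (quartiles 65 and 95) and 55 in 4OH-tamoxifen cells (quartiles 45 and 66). The distributions overlapped for every gene and sum, and cells are not replicates of a condition. In macrophages *P2ry12* was at 332 and 47.2 CPM, and in the other filtered cells at 46.8 and 12.7 CPM. The log2 ratio of *P2ry12* in members was -1.42 and lay between -1.81 and -1.05 in the 15 alternatives that could change it.

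**Figure D3:**
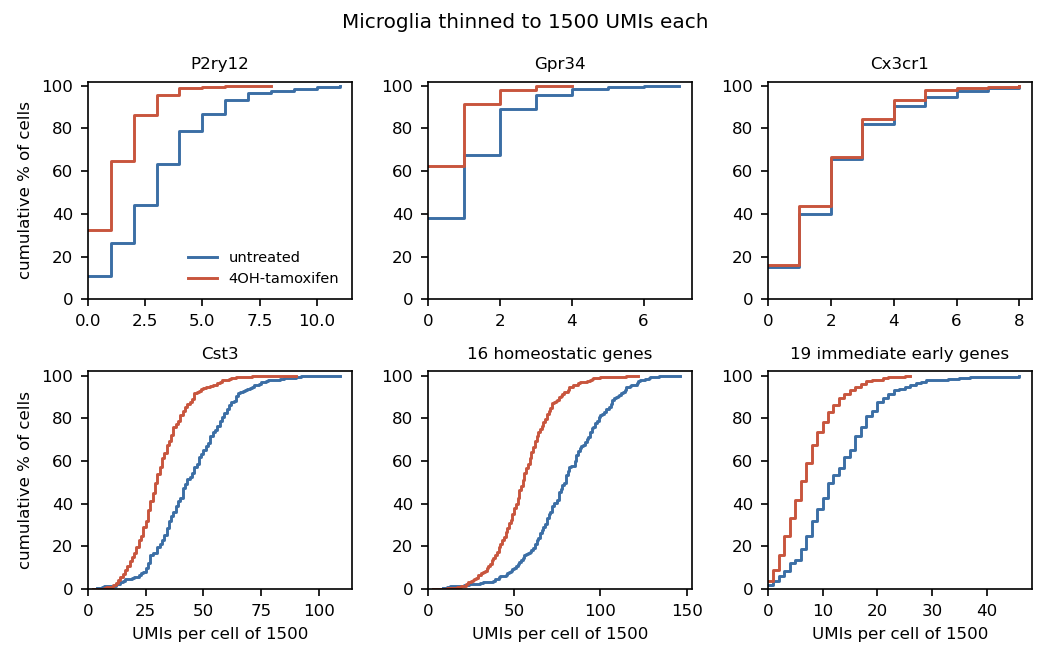
Cumulative percentage of cells (y axis) with up to a given number of UMIs of a gene or summed list (x axis, UMIs of 1500 per cell) in 311 untreated (blue) and 597 4OH-tamoxifen (red) microglia thinned to equal depth. The red curves for P2ry12, Gpr34, Cst3, the 16 homeostatic genes and the 19 immediate early genes lie to the left of the blue ones, while those for Cx3cr1 nearly coincide.

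Other genes that led the lower side were *F11r*, a junctional adhesion molecule gene at 313 and 97.1 CPM and a ratio of 0.310 (0.256 to 0.374), the unannotated RIKEN transcript *B930036N10Rik* (70.4 and 18.7 CPM, ratio 0.265, 0.169 to 0.404), the small GTPase gene *Gem* (75.0 and 30.5 CPM, ratio 0.406, 0.282 to 0.578) and *Lrba* (74.2 and 31.7 CPM, ratio 0.427, 0.298 to 0.606), a vesicle trafficking gene. All but *F11r* passed the filter only through the untreated library, which partly set their direction and rank. Neither the *Trem2* and ITAM list (12 of 15 passed, median log2 ratio -0.28) nor the lineage factors (15 of 16, -0.29) nor the lysosomal genes (20 of 22, -0.23) had a member past either fold. Their medians lay near that of the 338 microglial genes, and the lysosomal median was 0.14 when those genes set the scale. Of the lineage factors 13 had ratios below 1 and 2 above it, namely *Sall3* at 49.8 and 54.1 CPM and *Runx1*, a factor of early myeloid development, at 45.9 and 68.4 CPM, a ratio of 1.49 (1.08 to 2.08). Both reached 50 CPM only in the 4OH-tamoxifen library, so the filter partly set their direction.

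Immediate early genes, which respond within minutes to stimulation and to tissue dissociation, were also lower. Of 19 listed genes 16 passed, 15 had ratios below 1 and 4 were at or below 0.5, with a median log2 ratio of -0.84 and a sum of 8412 and 4515 CPM. *Egr1* was at 654 and 297 CPM, a ratio of 0.453 (0.405 to 0.508), *Junb* at 1493 and 692 CPM, a ratio of 0.464, and *Jun* at 1231 and 617 CPM, a ratio of 0.501 (0.462 to 0.543). *Jund* and *Ier5* were the others past 0.5. The same genes summed to 1429 and 768 CPM in other filtered cells and to 6173 and 2479 CPM in macrophages, so the sum was lower in the 4OH-tamoxifen library in all 3 classes. The list's median log2 ratio was -1.32 in other cells, among them the cells with microglial UMIs outside the members. *Nr4a1*, which did not pass the filter, went the other way at 12.2 and 40.4 CPM.

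Genes of mitosis were higher in the 4OH-tamoxifen library. The 12 listed genes of G2 and M phase, taken with no filter, summed to 241 and 546 CPM, and all 12 had ratios above 1. The 6 that passed the filter did so only through the 4OH-tamoxifen library, so their direction and their median log2 ratio of 1.29 were partly set by it. *Top2a*, a topoisomerase of dividing cells, was at 27.6 and 75.3 CPM, a ratio of 2.73 (1.87 to 4.08), *Mki67*, the Ki-67 gene, at 17.6 and 50.4 CPM, a ratio of 2.86 (1.78 to 4.77), and *Cenpf*, a kinetochore gene, at 23.0 and 61.6 CPM, a ratio of 2.68 (1.77 to 4.18). The sum was 192 and 199 CPM in other filtered cells and 679.8 and 578 CPM in macrophages, ratios of 1.04 and 0.851 against 2.26 in microglia. The 12 genes of the S phase list summed to 282 and 215 CPM, with 5 ratios above 1 and 7 below it when no filter was set, and *Pcna*, at 62.0 and 31.7 CPM, passed the filter only through the untreated library. With thinned cells the median was 0.15 over the G2 and M genes that still passed the filter. The mean UMIs of the whole list per thinned cell were 0.344 and 0.685.

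Members with at least 3 UMIs of the 12 genes, called mitotic here, numbered 16 of 311 (5.14%, 2.97 to 8.22) in the untreated and 54 of 601 (8.99%, 6.82 to 11.6) in the 4OH-tamoxifen library, although untreated members were deeper. Thinned to 1500 UMIs, the shares were 3.54% (1.78 to 6.24) and 7.87% (5.84 to 10.3), with intervals that overlap. In oligodendrocytes, which are past division, 1.08% and 1.04% met the same limit, as did 4.98% and 4.99% of all other filtered cells. The oligodendrocytes had median depths of 8927 and 6078 UMIs. Compared with members that had none of these UMIs, 62 of 2863 genes (2.17%) were at least 2 times higher in the mitotic microglia of both libraries. *Rrm2*, a ribonucleotide reductase subunit, had ratios of 65.6 and 40.7, the histone gene *H2afx* 23.4 and 20.7, *Hmgb2* 16.4 and 14.0 and the tubulin-binding *Stmn1* 12.8 and 9.46. *Cx3cr1* had ratios of 1.21 and 1.12 between the same cells, while *P2ry12* had 0.575 and 0.711. These genes were picked after their values were seen.

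A few further genes were higher in the 4OH-tamoxifen library. The metallothionein genes, which bind zinc and copper, were at 1203 and 2398 CPM (*Mt1*, ratio 1.99, 1.88 to 2.11) and 269 and 623 CPM (*Mt2*, ratio 2.31, 2.05 to 2.62), and in other cells at 1494 and 2488 CPM and 518 and 831 CPM. Of the glucocorticoid and hypoxia list 6 of 18 genes passed, and *Mt2* alone was past the fold. In members with at most 2% of UMIs from markers of other cell types, its log2 ratio was 1.00, just under the fold. *Ifi27l2a*, an interferon-induced gene, was at 39.0 and 103 CPM, a ratio of 2.65 (1.92 to 3.70), and *Cd74*, the invariant chain of MHC class II, at 47.5 and 109.5 CPM, a ratio of 2.31 (1.72 to 3.13). These were the only genes of the 338 past a ratio of 2, and both reached 50 CPM only in the 4OH-tamoxifen library. *Cd74* fell short of it with no UMI of any other-type gene of the rule (log2 ratio 0.79) and when CPM was computed per cell and averaged (0.97). The class II genes that *Cd74* serves stayed at or near 0, with 0 and 1 UMIs of *H2-Aa* and 6 and 13 UMIs of *H2-Ab1*, and of the other 16 interferon genes only *Ly6e* and *Bst2* passed, both with ratios below 1. With no filter, 12 of the 17 had ratios above 1 and 5 below it. *Il1b*, an inflammatory cytokine gene, had 2 and 31 UMIs, a ratio of 12.6 (3.21 to 109) that rests on 2 UMIs in the untreated library. Of the oestrogen receptor and sterol list, *Esr1* had 1 and 1 UMIs and *Esr2* none among 912 members, and the 2 genes that passed, *Hmgcs1* and *Ebp* of sterol synthesis, were at 85.0 and 108 CPM and 56.6 and 54.1 CPM, neither past the fold.

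Transcripts of other cell types were present in microglia of both libraries, and those of oligodendrocytes, astrocytes and neurons were higher in the 4OH-tamoxifen library. Of 88 markers of 12 other cell types, 22 passed the filter, 5 of them only through the 4OH-tamoxifen library, all 22 had ratios above 1 and 5 were past 2. With no filter, 43 of the 88 had ratios above 1 and 19 below it. The sums of 6 pericyte markers (93.4 and 67.2 CPM) and 6 fibroblast markers (105 and 79.0 CPM) were lower in the 4OH-tamoxifen library. The whole list had a sum of 14172 and 20724 CPM, which is 1.42% and 2.07% of the members' UMIs. The myelin gene *Mbp* made up most of it, at 9330.0 and 12972 CPM in members and 12925 and 14959.7 CPM in other cells. Among the lists of other cell types, neuronal genes had the highest median log2 ratio, 1.39 over 6 genes, and the neurofilament gene *Nefm* was at 83.4 and 260.1 CPM, a ratio of 3.12 (2.52 to 3.88). The genes with the highest library ratios included the motor protein gene *Kif5c* (21.4 and 72.8 CPM, ratio 3.40, 2.23 to 5.33), *Igsf8* (20.7 and 69.7 CPM, ratio 3.37), *Elavl3*, *Eef1a2* and the peripherin gene *Prph*, all 5 at a higher level in other 4OH-tamoxifen cells than in members. The histone gene *Hist1h2ap* was at 26.0 and 87.7 CPM in members and 30.3 and 39.0 CPM in other cells. All 6 passed the filter only through the 4OH-tamoxifen library, which partly set their direction and rank. In other filtered cells the neuronal list's sum was 3403 and 5346 CPM and in macrophages 679.8 and 1723 CPM. The part of these transcripts in the lower microglial ratios was not tested. Among members with at most 2% of such UMIs, 230 untreated and 316 4OH-tamoxifen cells, the homeostatic median was -0.57 against -0.62.

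**Figure D4:**
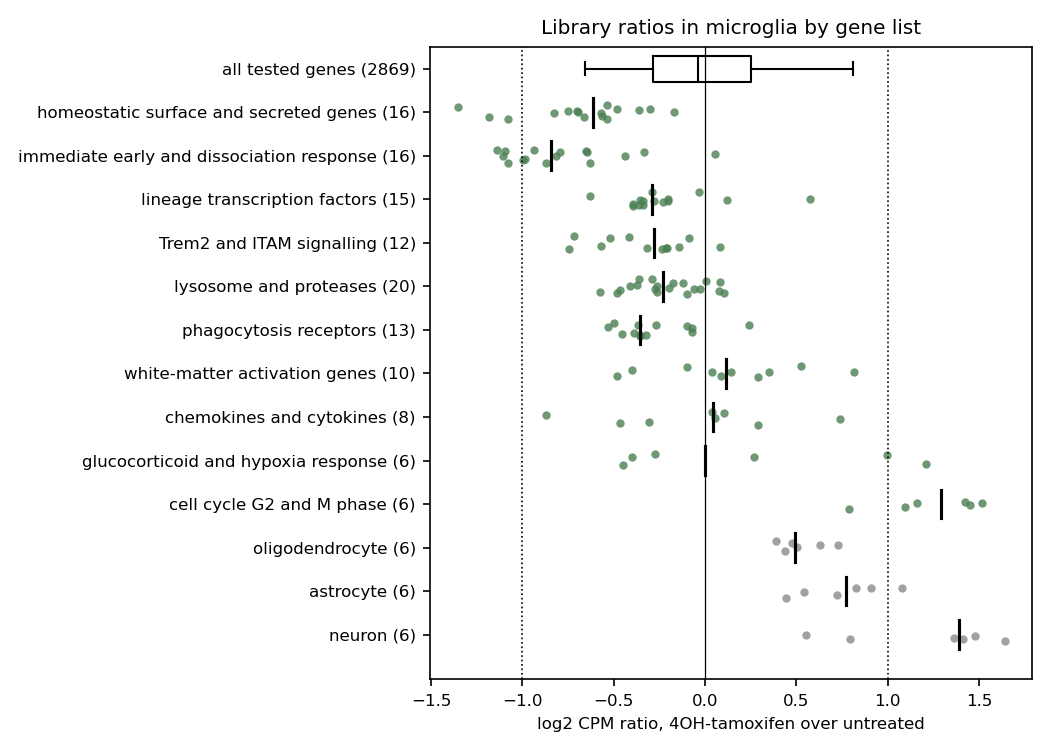
log2 CPM ratio of 4OH-tamoxifen over untreated microglia (x axis) for each gene that passed the filter (points) in 13 lists (y axis, with the number of genes), with the list median as a bar, dotted lines at ratios of 0.5 and 2, and a box for all 2869 genes (quartiles and median, whiskers at percentiles 5 and 95). All 16 homeostatic genes lie below 0, the 6 G2 and M genes, which passed only through the 4OH-tamoxifen library, above it, and the markers of other cell types (grey) lie above 0.

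Members also differed among themselves. The largest Fano factors (variance over mean of UMIs in thinned cells) belonged to the neuronal RNA *Meg3*, at 61.2 and 29.1, followed by the nuclear RNA *Malat1* and by *Snhg11*. A few cells held *Meg3* in large numbers, since a mean of 0.312 and 0.427 *Meg3* UMIs per cell stood beside maxima of 77 and 66. Leaving out members with at least 10 UMIs of *Meg3* and *Snhg11* removed 1 untreated and 4 4OH-tamoxifen cells. The cytoskeletal *Actb* had Fano factors of 10.5 and 9.97. *Apoe*, an apolipoprotein gene, had Fano factors of 7.15 and 6.89 and maxima of 96 and 118 against means of 15.0 and 16.2 UMIs. *Cst3* (6.06 and 4.44) and the cathepsin D gene *Ctsd* (5.19 and 4.25) were lower. *Mbp*, *mt-Co3*, *mt-Atp6*, *Col3a1* and *Igf2* were the other genes of the first 12.

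A small group of members carried genes that mark microglia of developing white matter. Cells with at least 2 UMIs of *Spp1*, *Gpnmb*, *Itgax*, *Igf1* and *Lpl* were 23 of 311 (7.40%, 4.75 to 10.9) in the untreated and 44 of 601 (7.32%, 5.37 to 9.70) in the 4OH-tamoxifen library, and thinned to 1500 UMIs 1.29% (0.352 to 3.26) and 3.02% (1.80 to 4.72). The same limit was met by 0.181% and 0.823% of oligodendrocytes at the depths given above, and by 3.76% and 2.79% of all other filtered cells, which include macrophages and vascular cells. The oligodendrocytes were chosen with at most 1 UMI of *C1qa*, *C1qb*, *C1qc* and *Csf1r*, so their low shares were partly set by that choice. The shares of other cells were not thinned. These cells were deeper than the 227 and 459 members with none of the genes, with medians of 5367 against 3770 and 3412 against 2277 UMIs, so they are compared by CPM. The 5 genes were sparse over all members. *Spp1* was at 12.2 and 45.4 CPM, *Igf1* at 18.4 and 33.6 CPM, and *Gpnmb* had 0 UMIs.

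Outside the genes that chose the cells, 20 of 2868 genes (0.697%) were at least 2 times higher in both libraries, 3 of them among 20 measured lysosomal genes. *Plin2*, which coats lipid droplets, was at 171 against 47.2 CPM in the untreated library, a ratio of 3.62 (2.08 to 6.14), and 149 against 32.9 CPM in the 4OH-tamoxifen library, a ratio of 4.51 (2.59 to 7.72). The cathepsin B gene *Ctsb* was at 3842 against 1699 CPM in the untreated library, a ratio of 2.26 (2.04 to 2.50), and 4197 against 1808 CPM in the 4OH-tamoxifen library, a ratio of 2.32 (2.13 to 2.53). The lysosomal tetraspanin *Cd63* had ratios of 2.66 and 2.19, the protease inhibitor *Cstb* 2.79 and 2.63, lactate dehydrogenase A (*Ldha*) 3.31 and 2.46, the chemokine *Ccl6* 2.43 and 3.07, lysozyme (*Lyz2*) 2.19 and 2.84, the endoplasmic reticulum gene *Sdf2l1* 3.58 and 2.32, the taurine transporter *Slc6a6* 2.14 and 2.29 and *Cadm1* 3.87 and 2.13. *Ctsd*, just under the fold in the untreated library, had 1.97 and 2.03.

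Some steady-state genes were lower in the same cells, among them *P2ry12* and *Tmem119*, which the rule used. *P2ry12* was at 1256 against 2117 CPM in the untreated library, a ratio of 0.593 (0.504 to 0.695), and 514 against 808 CPM in the 4OH-tamoxifen library, a ratio of 0.636 (0.501 to 0.796). *Tmem119* had ratios of 0.550 and 0.513 and *Selplg* 0.593 and 0.570, while *Cst3* (0.895 and 0.945) stood closer to 1. Over the 16 homeostatic genes the median log2 ratio was -0.23 and -0.10. The 2 libraries are separate pools of mice, and the ratios of each are computed within it, so each ratio is taken inside 1 batch. Over all 2868 genes the median log2 ratio was 0.04 and -0.03, and over the 20 lysosomal genes 0.42 and 0.52. Across thinned cells the lysosomal sum and the sum of the white-matter activation list, without the 2 genes that both lists hold, had Spearman correlations of 0.26 over 311 untreated and 0.50 over 597 4OH-tamoxifen cells, given as a description of cells that share a library. The homeostatic sum did not fall with either: its correlations were 0.32 and 0.34 with the lysosomal sum and 0.05 and 0.22 with the white-matter activation sum.

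**Figure D5:**
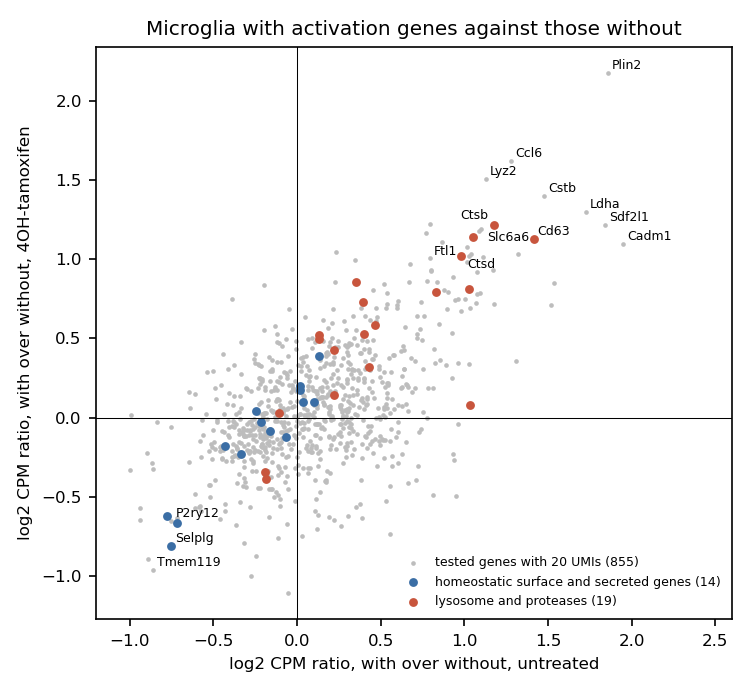
log2 CPM ratio of microglia with at least 2 UMIs of the activation genes over microglia with none, in the untreated library (x axis) and the 4OH-tamoxifen library (y axis). Grey points are the 855 measured genes with at least 20 UMIs in the cells with these genes and over 3 in the cells without, in each library. Lysosomal genes (red) lie mostly in the upper right, and P2ry12, Tmem119 and Selplg in the lower left.

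A larger group held the chemokine genes *Ccl3* and *Ccl4*, which attract other leukocytes. Members with at least 3 UMIs of the pair were 67 of 311 (21.5%, 17.1 to 26.5) and 131 of 601 (21.8%, 18.6 to 25.3), and thinned to 1500 UMIs 10.9% (7.69 to 14.9) and 13.9% (11.2 to 16.9). No oligodendrocyte of 553 and 1822 met the limit, which allows shares of up to 0.542% and 0.165%, and 0.725% and 0.225% of all other filtered cells met it. As above, the choice of oligodendrocytes left out cells with microglial UMIs, which partly set this outcome. The chemokine cells were deeper than members without either gene, with medians of 4949 against 3643 and 2879 against 2229 UMIs. Against members without either gene, 19 of 2867 genes (0.663%) were at least 2 times higher in both libraries. The cytokine and chemokine genes among the higher ones were *Tnf* (ratios 2.67 and 5.01), *Cxcl10* (2.89 and 4.75) and *Ccl2* (3.55 and 3.32), beside the surface protein gene *Cd83* (3.53 and 3.47), the stress genes *Gadd45b* (3.94 and 3.36) and *Atf3* (2.31 and 3.20), and *Plin2* (3.44 and 4.69). *Ctsb* had ratios of 2.00 and 2.21, *Cx3cr1* of 0.932 and 0.947 and *C1qa* of 0.954 and 1.13. Of the immediate early genes, *Jun* had 0.864 and 1.33 and *Fos* 1.09 and 1.42. The group overlapped with the activation group, with 11 untreated and 16 4OH-tamoxifen cells in both, which is 47.8% and 36.4% of the activation cells and 16.4% and 12.2% of the chemokine cells. Both groups were set by UMIs that were not thinned, and both were deeper, and the part of depth in the overlap was not tested. The UMI limits of the cell groups and the genes named here were chosen after their values were seen.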

How the data were processed

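Single-cell RNA-seq was measured in 2 libraries of the mouse ventral parafacial region. According to the labels and methods, the authors demultiplexed reads with bcl2fastq 2.18.0.12 and counted them with Cell Ranger 2.2.0 on the 10X mm10 reference. The deposited values are unnormalised UMI counts per gene and barcode, with 3767 barcodes and 18496942 UMIs in the untreated and 10241 barcodes and 34704167 UMIs in the 4OH-tamoxifen library. Cells were filtered and members found by the limits in the text, without clustering or a doublet caller.

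Member UMIs were summed per library and divided by their total (CPM). Genes compared between libraries reached 50 CPM in either and 20 UMIs in both, and a ratio of at least 2 or at most 0.5 was the fold. Intervals are exact: Clopper-Pearson for shares, conditional binomial for ratios. A count of 0 allows up to 3 counts. Cells were thinned to 1500 UMIs where depths had to match (random seed 20). The ratio and interval code was tested on simulated data. Python 3.11.15, numpy 2.4.6, scipy 1.17.1 and pandas 2.3.3 were used, and scanpy 1.11.5 for Scrublet scores as an alternative. Oligodendrocytes, for background shares, had at least 4 *Mog* and *Mag* and at most 1 UMI of *C1qa*, *C1qb*, *C1qc* and *Csf1r*.

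Named genes were the genes of the rule and those ranked highest by excess over other cells, library ratio, ratio to macrophages, Fano factor and ratio in cells with activation genes, besides lists by role. Members and lists were chosen with earlier results of these data known. Positions are from the reference annotation of GRCm38 and promoters from RefSeq. Of the listed genes, 2 had no row in the gene tables and were not used here, and some genes are not reported here.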

Additional observations from a re-analysis of the deposited data

How the results depend on the processing

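With 1 library per condition, leaving out a library was not possible. No paired analysis was possible because each condition had 1 library. Across the 15 alternatives that can change a single gene's ratio, 433 of 435 log2 ratios of 29 named genes kept their direction. *Cx3cr1* and *Tyrobp* turned above 0 when the libraries were scaled to the 338 microglial genes. That scaling was chosen after seeing the data, as were the limit of 2% on other-type marker UMIs and the limit on *Meg3* and *Snhg11*. Across 15 alternatives the homeostatic median stayed between -0.77 and -0.25 and the immediate early median between -1.08 and -0.48. With a minimum of 1200 genes, the 4OH-tamoxifen share was 4.73% and the share ratio 0.482, 167 genes were higher and 54 lower, and the medians were -1.08 (immediate early), 1.94 (G2 and M) and 1.02 (markers of other cell types). With at most 10% mitochondrial UMIs the shares were 13.8% and 8.52% and their ratio 0.620. With no UMI of any other-type gene of the rule the shares were 6.40% and 4.55%, and 43 genes were lower. With the top Scrublet scores removed (11 and 69 members), 51 genes were higher. In thinned cells 30 genes were higher and 52 lower, and the median of the G2 and M genes that still passed the filter was 0.15. With 10 CPM added, 43 were higher and 13 lower, with a filter of 10 CPM 672 and 172, and of 100 CPM 27 and 13. Scaled to the microglial genes, 240 were higher and 3 lower, and the medians were -0.25 (homeostatic), -0.48 (immediate early), 1.66 (G2 and M), 1.76 (neuron), 1.09 (other cell types) and 0.14 (lysosome, which reversed from -0.23). In members with at most 2% other-type UMIs the G2 and M median was 1.56 and that of other-type markers 0.48. The thinned shares of cells with activation genes were 1.29% and 3.02%. The causes were not tested. Depth limits genes under about 50 CPM, where few UMIs stand behind a ratio.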

Other observations

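Some cells with microglial UMIs lay outside the members. At least 8 UMIs of *C1qa*, *C1qb*, *C1qc* and *Csf1r* and 1 of *P2ry12*, *Tmem119* and *Cx3cr1* were also held by 11 untreated and 32 4OH-tamoxifen barcodes that failed the cell filters, of which 4 and 28 had fewer than 800 genes. Among filtered cells, 56 untreated and 88 4OH-tamoxifen cells with these UMIs had at least 2 *Mog* or *Mag* UMIs, with median depths of 4508 and 3395 UMIs, against medians of 3934 and 2430 UMIs in the members. Counted separately, 11 and 24 filtered cells with these UMIs held *Slc32a1* or *Slc17a6*.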
